A study of Mus musculus with 469 samples.

Results

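The 8 genes described here, Plk4, Stil, Sass6, Cenpj, Cep152, Cep63, Cep135 and Pcnt, encode proteins that build a new centriole beside an old one, and were examined by name among 23281 gene entries in single cells of the mouse olfactory epithelium. All 8 were in the table. The list was chosen by function, and was selected on earlier CPM values of these same cells, in which the kinase gene was found in the Neurog1-sorted cells, so the levels below are a description and carry no test.

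A centriole is a small barrel of microtubules that organises the centrosome and, at the cell surface, becomes the basal body of a cilium. In a dividing cell each centriole is copied once per cell cycle. Cep152 and Cep63 form a platform around the old centriole, the kinase Plk4 binds there and phosphorylates Stil, and Stil brings in Sass6, which assembles the cartwheel that sets the shape of the new barrel. Cenpj (also called CPAP) and Cep135 link the cartwheel to microtubules and lengthen them, and Pcnt (pericentrin) organises the surrounding material from which microtubules grow. Olfactory sensory neurons bear many cilia on the knob of their dendrite and therefore need many centrioles, whereas most cells have a single pair. Neurog1 and Neurod1, which encode proneural transcription factors, mark the precursors of these neurons, Gap43 marks immature neurons and Omp mature ones.

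The cells came from 8-week-old mice and were captured one by one on a Fluidigm C1 chip, which isolates cells in small chambers for cDNA synthesis. Of 6 groups, 2 were OMP-eGFP cells of B6 OMP-eGFP mice, taken 14 days after olfactory bulbectomy (removal of the olfactory bulb, which kills the sensory neurons and starts their replacement) or after transplantation and engraftment. A further 3 were Neurog1-eGFP cells of FVB Neurog1-eGFP mice, from uninjured epithelium and from 5 and 14 days after bulbectomy. The reference was uninjured, unsorted epithelium of B6;129SF1/J (F1) wild-type mice, in 2 runs. The Neurog1 and OMP promoters drive the eGFP, which outlasts the mRNA, so a Neurog1-eGFP cell need not still carry Neurog1 mRNA. Strain and sort changed together between the 3 kinds of mice and cannot be told apart. The labels used here name no chip, so chip cannot be told apart from them either. The engrafted cells had passed through a host of which these labels say no more. The labels named no animal. Each group therefore counted as 1 sample, cells were not used as replicates, and no p-value was computed.

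Values are CPM, a gene's scaled share of the summed signal of its cell, and a gene was called found at a CPM of 10 or more, about 5.02 to 13.5 fragments at the groups' median depths. Libraries of at least 1000 genes were kept. Among them were 3 pairs of near-identical profiles (Pearson r across genes of 0.943 to 0.994, against at most 0.652 for any other pair outside the very rich libraries), and each pair was averaged and counted as 1 cell. The cells kept were 42 OMP-eGFP cells at 14 days, 29 engrafted OMP-eGFP cells, 46 uninjured, 46 5-day and 25 14-day Neurog1-eGFP cells, and 67 reference cells of run 1 and 70 of run 2. Median depth was 1347923 and 501827 fragments in the OMP-eGFP groups at 14 days and after engraftment, 848311, 1136935 and 1099217 in the uninjured, 5-day and 14-day Neurog1-eGFP groups, and 504101 in the reference. Of the reference libraries, 9 of run 1 had 12256 to 16307 genes, where no other kept library had more than 6157, and reference values are given with and without them. Shares of cells carry 95% exact binomial (Clopper-Pearson) intervals, which cover counting error only. For a count of 0, the share said to be allowed is 3 divided by the number of cells, unless the exact interval is named.

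The marker genes matched the labels in part. Omp was found in 41 of 42 OMP-eGFP cells at 14 days and in 22 of 29 engrafted cells. Among the Neurog1-eGFP cells of the 3 groups, Neurog1 mRNA was found in 52 (44.4%), Neurod1 in 28 (23.9%), Gap43 in 76 (64.96%) and Omp in 52 (44.4%), so many libraries of this sort carried genes of later stages. Whether the Omp signal came from the sorted cell itself was not tested. In the reference, Omp was found in 89.8% and the sustentacular cell gene Cyp2g1 in 75.9% of cells, so most of these libraries carried genes of more than 1 cell type. The summed CPM of 6 sustentacular markers ranged from 0 to 68952 in OMP-eGFP cells at 14 days, from 0 to 42610 across the Neurog1-eGFP cells, and from 1.95 to 114733 in the reference, where the median was 6040.

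The kinase gene and its partner Stil are the pair the results turn on, so the 250 bases upstream of their start sites are shown, from RefSeq on the GRCm38.p6 build (the deposited values were made on mm9, whose coordinates differ). The Plk4 window lies on the plus strand at chr3:40799701-40799950 and touches no gene model of Plk4. The Stil window lies on the plus strand at chr4:114999868-115000117, and its last 10 bases fall inside a longer gene model of Stil. Capitals mark the letters of an E2F motif in the Plk4 window and of CCAAT boxes in the Stil window, on either strand.
Plk4: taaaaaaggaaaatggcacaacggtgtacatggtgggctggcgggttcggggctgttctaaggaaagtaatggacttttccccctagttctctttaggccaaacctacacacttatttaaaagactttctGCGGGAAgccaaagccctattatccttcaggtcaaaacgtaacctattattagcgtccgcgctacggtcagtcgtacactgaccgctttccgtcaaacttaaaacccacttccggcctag
Stil: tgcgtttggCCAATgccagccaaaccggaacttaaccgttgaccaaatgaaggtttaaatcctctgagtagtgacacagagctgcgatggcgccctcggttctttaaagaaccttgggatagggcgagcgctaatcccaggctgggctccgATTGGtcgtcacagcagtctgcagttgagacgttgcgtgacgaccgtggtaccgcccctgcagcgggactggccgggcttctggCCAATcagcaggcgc

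Among motifs searched on both strands in the 250 bases upstream of the 8 genes, the E2F letters TTCCCGC stood in 3 (Plk4, on the minus strand 120 bases before the start, Cep152 and Pcnt), against 3.84% of 32544 RefSeq promoters. The second E2F form, TTGGCGC, stood in none of the 8 (1.98% of all promoters). The cell cycle element letters TTTGAA stood upstream of Sass6 (15.8% of all) and TTCGAA upstream of Cep152 (1.34% of all). Of the proneural E-boxes, CAGATG stood upstream of Sass6 (14.4% of all) and CAGCTG upstream of Cenpj (13.05% of all), whose window, like that of Cep63, lies wholly inside a longer model of the gene. CCAAT stood upstream of Stil, Cep152 and Cep135 (33.8% of all promoters), and the X-box bound by RFX factors upstream of none (0.111% of all). A match of letters does not show binding.

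Plk4, the kinase that starts duplication, was found mainly in the Neurog1-eGFP cells. It was found in 3 of 42 OMP-eGFP cells at 14 days (7.14%, 95% interval 1.498 to 19.5%) and in 1 of 29 engrafted cells (3.45%, 0.0873 to 17.8%). In the Neurog1-eGFP sorts it was found in 18 of 46 uninjured cells (39.1%, 25.1 to 54.6%), 16 of 46 cells at 5 days (34.8%, 21.4 to 50.2%) and 13 of 25 cells at 14 days (52%, 31.3 to 72.2%). The reference had 13 such cells (9.49%, 5.15 to 15.7%), of which 9 were the very rich libraries, so that 4 of the other reference cells had it (3.13%, 0.858 to 7.81%). By run, 11 of 67 cells of run 1 (16.4%) and 2 of 70 cells of run 2 (2.86%) had it. The intervals of the 3 Neurog1-eGFP groups overlapped one another and lay above those of the reference and of both OMP-eGFP groups, with or without the very rich libraries.

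Where it was found, its level differed as well. The lowest, median and highest values over all cells were 0, 0 and 248.3 CPM in the OMP-eGFP cells at 14 days and 0, 0 and 297.3 CPM in the engrafted cells. They were 0, 0 and 3938 CPM in uninjured, 0, 0 and 3192 CPM in 5-day and 0, 15.5 and 2565 CPM in 14-day Neurog1-eGFP cells, and 0, 0 and 561 CPM in the reference. Every one of the 19 cells at 1000 CPM or more was a Neurog1-eGFP cell. In the Neurog1-eGFP cells with the gene, the median was 643 CPM, and 11 of all cells of this sort lay near the limit, between 5 and 20 CPM.

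**Figure D1:**
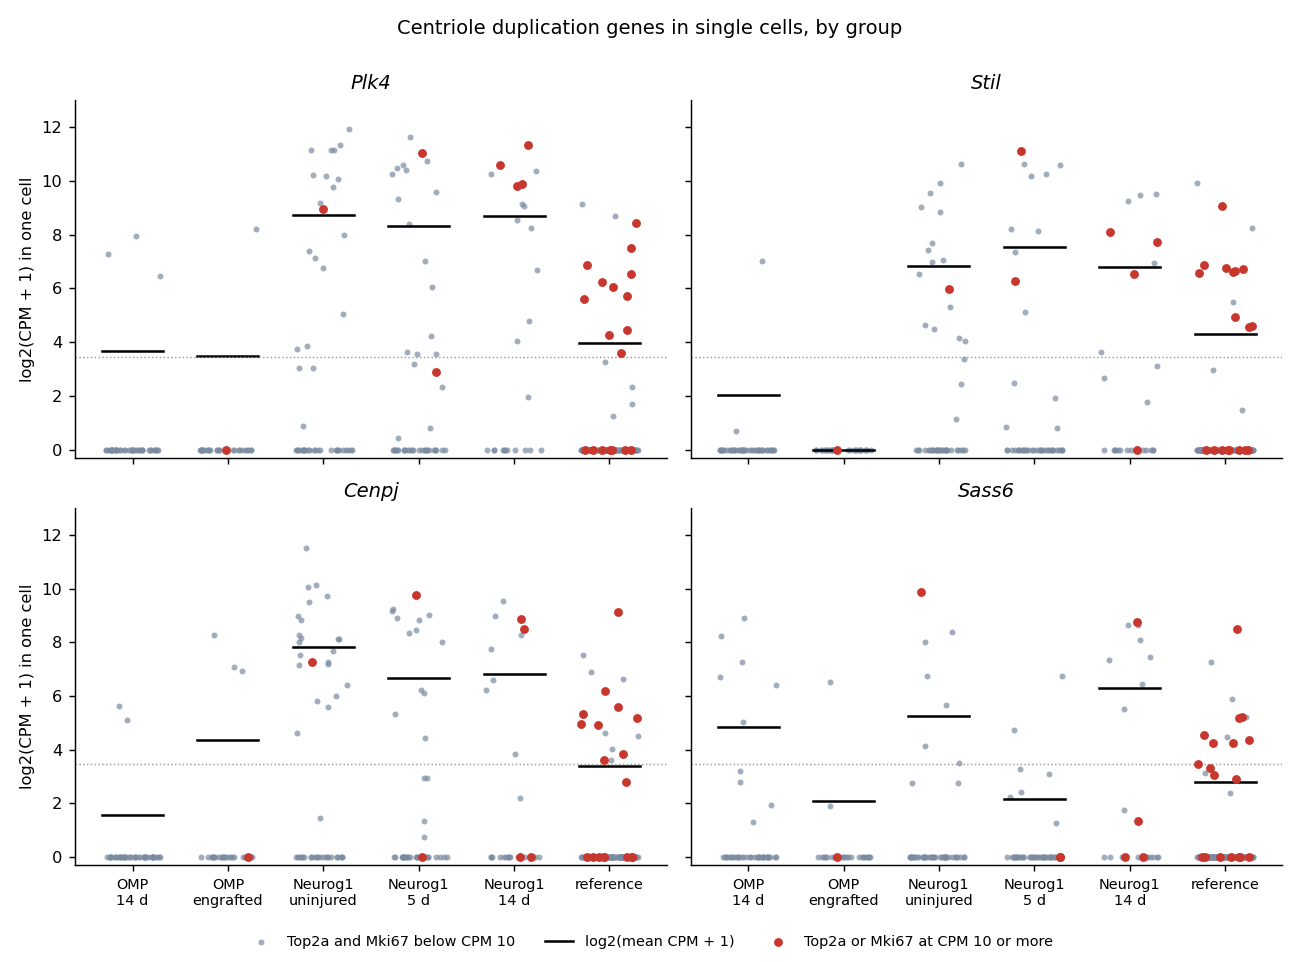
Each point is the log2(CPM + 1) of Plk4, Stil, Cenpj or Sass6 in 1 cell, by group, with cells that carry Top2a or Mki67 at CPM 10 or more in red, the log2 of the group mean + 1 as a bar and the limit of 10 CPM as a dotted line. Plk4 lies above 1000 CPM in 19 cells, all of the 3 Neurog1-eGFP groups. Most points of these groups, and most of these 19, are not red.

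Stil, the scaffold that Plk4 phosphorylates, was also found mainly in the Neurog1-eGFP cells. It was found in 1 of 42 OMP-eGFP cells at 14 days (130 CPM in that cell) and in 0 of 29 engrafted cells, which allows a share of up to 10.3%. It was found in 16 of 46 uninjured, 10 of 46 5-day and 8 of 25 14-day Neurog1-eGFP cells (34.8%, 21.7% and 32%), and in 13 reference cells (9.49%), again 4 (3.13%) without the very rich libraries. At 5 days its interval, 10.9 to 36.4%, overlapped those of the reference (5.15 to 15.7%) and of both OMP-eGFP groups. The 14-day interval, 14.9 to 53.5%, overlapped that of the reference. None overlapped that of the reference without the very rich libraries (0.858 to 7.81%). The highest values were 1598, 2206 and 720 CPM in the uninjured, 5-day and 14-day Neurog1-eGFP groups, and 981 CPM in the reference. Sass6, the cartwheel protein, was rarer and less even. It was found in 6 of 42 OMP-eGFP cells at 14 days (14.3%) and 1 of 29 engrafted cells, in 7 of 46 uninjured, 2 of 46 5-day and 8 of 25 14-day Neurog1-eGFP cells (15.2%, 4.35% and 32%), and in 11 reference cells (8.03%, or 5 cells without the very rich libraries). Its interval in OMP-eGFP cells at 14 days, 5.43 to 28.5%, overlapped that of each Neurog1-eGFP group, unlike for Plk4.

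Cenpj, which lengthens the new centriole, was the gene found most often in uninjured Neurog1-eGFP cells. It was found in 2 of 42 OMP-eGFP cells at 14 days and 3 of 29 engrafted cells (4.76% and 10.3%), in 23 of 46 uninjured, 13 of 46 5-day and 9 of 25 14-day Neurog1-eGFP cells (50%, 28.3% and 36%), and in 16 reference cells (11.7%), or 8 (6.25%) without the very rich libraries. The 3 Neurog1-eGFP intervals overlapped one another, so no order among injury states could be read from these shares. The 5-day interval, 15.99 to 43.5%, overlapped those of the reference (6.82 to 18.3%) and of both OMP-eGFP groups (up to 16.2% and 27.4%). The 14-day interval, 17.97 to 57.5%, overlapped those of the reference and of the engrafted cells. The uninjured interval overlapped none of these. The highest single value was 2909 CPM, in an uninjured Neurog1-eGFP cell.

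The platform and matrix genes separated the groups less. Cep152, which recruits Plk4, was found in 1 of 42 and 0 of 29 OMP-eGFP cells at 14 days and after engraftment, in 7 of 46, 7 of 46 and 6 of 25 Neurog1-eGFP cells (uninjured, 5 days, 14 days), and in 18 reference cells (13.1%), or 9 (7.03%) without the very rich libraries. Its partner Cep63 was found in 3 of 42 and 0 of 29 OMP-eGFP cells, in 11 of 46, 13 of 46 and 7 of 25 Neurog1-eGFP cells, and in 24 reference cells (17.5%, or 15 cells, 11.7%, without the very rich libraries). Cep135 was found in 10 of 42 and 4 of 29 OMP-eGFP cells (23.8% and 13.8%), in 8 of 46, 4 of 46 and 6 of 25 Neurog1-eGFP cells (17.4%, 8.7% and 24%), and in 19 reference cells (13.9%, or 10 cells, 7.81%, without the very rich libraries). Pcnt was found in 3 of 42 and 1 of 29 OMP-eGFP cells, in 4 of 46, 4 of 46 and 6 of 25 Neurog1-eGFP cells, and in 25 reference cells (18.2%, or 16 cells, 12.5%, without the very rich libraries). For Cep135 and Pcnt the intervals of all 6 groups overlapped.

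**Figure D2:**
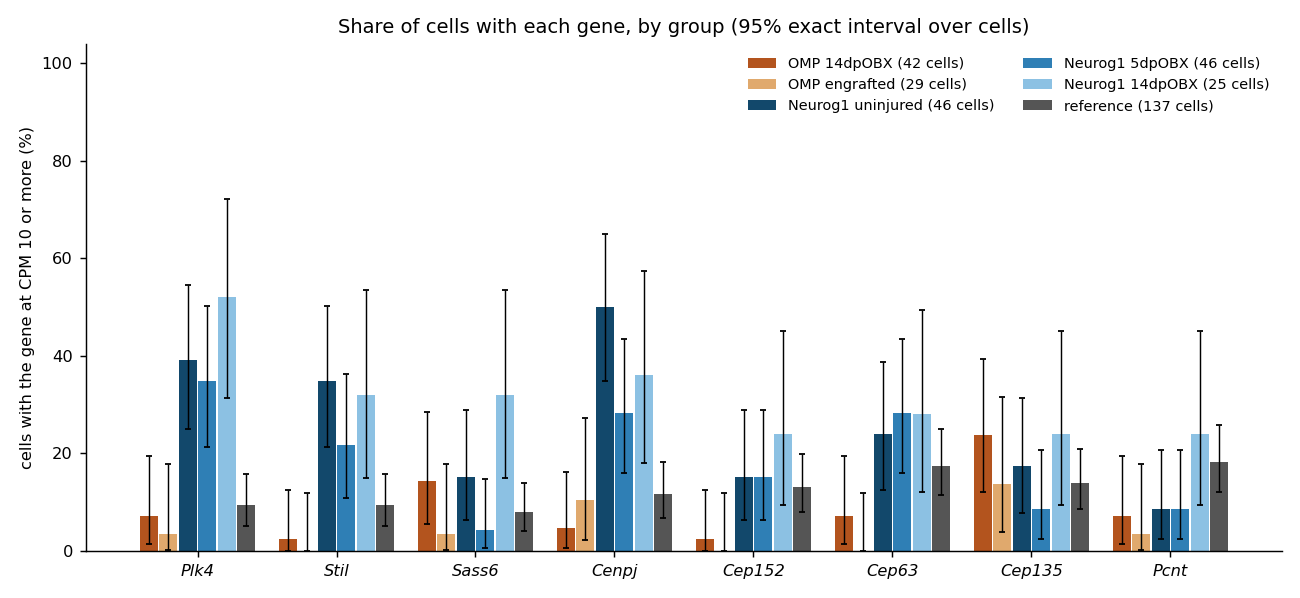
Bars give the percentage of cells with each gene at CPM 10 or more in the 6 groups, and error bars the 95% exact interval over cells. Plk4, Stil and Cenpj stand higher in the 3 Neurog1-eGFP groups (21.7 to 52%) than in the OMP-eGFP groups and the reference (0 to 11.7%), while Cep135 and Pcnt do not. Of these, only Plk4 has all its Neurog1-eGFP intervals apart from those of the other groups.

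Counted per cell, the 8 genes were seldom found in numbers outside the Neurog1-eGFP sorts. At least 3 of the 8 were found in 0 of 71 OMP-eGFP cells, which allows up to 5.06% by the exact interval, in 35 Neurog1-eGFP cells (29.9%, 21.8 to 39.1%), and in 14 reference cells (10.2%), or 5 (3.91%, 1.28 to 8.88%) without the very rich libraries. None of the 8 was found in 32 of the Neurog1-eGFP cells, 1 in 22, 2 in 28, 3 in 13, 4 in 11, 5 in 5, 6 in 4 and all 8 in 2 cells. The 9 very rich libraries held 7 or 8 of the genes each.

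Levels of different genes can be compared on a per-length scale, in FPKM (fragments scaled by gene length and depth) that the authors computed for the Neurog1-eGFP cells. Over all cells of the 3 groups Plk4 had the highest mean, 108.8 FPKM, ahead of Cenpj (34.6), Stil (26.3), Cep63 (15.7), Cep135 (9.80), Sass6 (7.69), Cep152 (5.93) and Pcnt (2.18). In the cells where each was found the median was 186.7 FPKM for Plk4, 63.6 for Cenpj, 54.8 for Cep63, 38.4 for Stil, 37.7 for Sass6, 25.0 for Cep135, 19.8 for Cep152 and 7.83 for Pcnt. The kinase gene therefore stood first on both measures, while single cells ranged from 3.10 to 1152 FPKM and overlapped those of every other gene in the list.

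Cells were next divided by mitotic genes. Top2a and Mki67, which encode a DNA topoisomerase and the Ki-67 protein of dividing cells, are switched off in cells that have left the cycle, and a cell was counted as mitotic when either reached CPM 10. This held for 7 Neurog1-eGFP cells (1 uninjured, 2 from 5 days and 4 from 14 days), for 1 of 71 OMP-eGFP cells and for 18 reference cells, 9 of them very rich libraries. The limit itself fell in a gap: the Neurog1-eGFP cells nearest to it had 28.4 CPM on the upper side and 4.77 CPM on the lower.

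Plk4 was found in 6 of the 7 Neurog1-eGFP cells with mitotic genes (85.7%, 42.1 to 99.6%) and in 41 of the 110 without them (37.3%, 28.2 to 47.01%). The intervals overlapped. Seen from the other side, 41 of the 47 cells with Plk4 carried neither Top2a nor Mki67 at the limit, and so did 16 of the 19 cells at 1000 CPM or more. Of the same 47 cells, 34 had none of 16 further genes of the G2 and M phases, such as Ccnb1, Cdk1 and Aurkb, at CPM 10, and of the 70 cells without Plk4, 62 had none. All 5 Neurog1-eGFP cells with 3 or more of those 16 genes carried Plk4, and all 5 also carried Top2a or Mki67. Of 14 genes of S phase, the median cell had 1, both among the 47 cells with Plk4 and among the 70 without it.

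In the 7 cells with mitotic genes the values were as follows. The uninjured cell had Plk4 at 489 CPM with all 8 genes found, and Sass6 at 936 CPM, the highest value of that gene in any cell. Of the 5-day cells, the averaged near-identical pair had 2091 CPM of Plk4 and 2206 CPM of Stil, and the other had 6.32 CPM of Plk4, below the limit, with 875 CPM of Cenpj. The 14-day cells had 1527, 951, 2565 and 885 CPM of Plk4, with Stil at 0, 209.5, 91.9 and 274.5 CPM in the same cells. Neurod1 was found in 6 of the 7, at 528 to 3329 CPM. The only exception was the 5-day cell without Plk4 at the limit, which had 0 CPM of Neurog1 and of Neurod1 and 278.2 CPM of Omp. The last of the 14-day cells also carried Gap43 (483 CPM) and Omp (719 CPM) at 211292 fragments, and whether it held more than 1 cell was not tested.

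The other genes were found in these 7 cells and in the 110 without mitotic genes as follows. Stil was found in 6 of 7 (85.7%, 42.1 to 99.6%) and in 28 of 110 (25.5%, 17.6 to 34.6%), and its intervals did not overlap. Cep152 was found in 5 of 7 (71.4%, 29.04 to 96.3%) and 15 of 110 (13.6%, 7.84 to 21.5%), again without overlap. Cep63 was found in 5 of 7 and 26 of 110 (23.6%), Cenpj in 4 of 7 and 41 of 110 (37.3%), and Sass6, Cep135 and Pcnt in 2 of 7 each and in 15, 16 and 12 of 110. A mean of 4.57 of the 8 genes was found in a cell with mitotic genes and 1.76 in a cell without. Median depth was 1241148 fragments with mitotic genes and 1020475 without, and the median number of genes was 3735 and 2814. The part of depth in these shares was not tested beyond the thinning described later, and that of gene number was not tested.

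On the ratio of mean CPM (with 1 added to each mean), 5 of the 8 genes were at least 2-fold higher in the cells with mitotic genes (Plk4, Stil, Sass6, Cep152 and Cep63), where 19.4% of 10078 genes were, and Cep135 was at least 2-fold lower, as were 46.4% of all genes. Plk4 averaged 1216 CPM with mitotic genes and 326.7 CPM without (log2 ratio 1.89), and Stil 417.2 and 124.003 CPM (1.74). Without the highest cell of the group with the higher mean the log2 ratio was 1.60 for Plk4, -0.06 for Stil and 0.70 for Cep152, so that the calls of Stil and Cep152 rested on 1 cell each, and 3 of 8 genes were then at least 2-fold higher. Sass6 averaged 195.2 and 22.4 CPM (3.06), a difference resting on 2 of the 7 cells, and its ratio was 1.63 without the higher of them. Cenpj averaged 264.3 and 144.1 CPM (0.87). The median log2 ratio was 1.47 over the 8 genes and -0.76 over all genes.

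**Figure D3:**
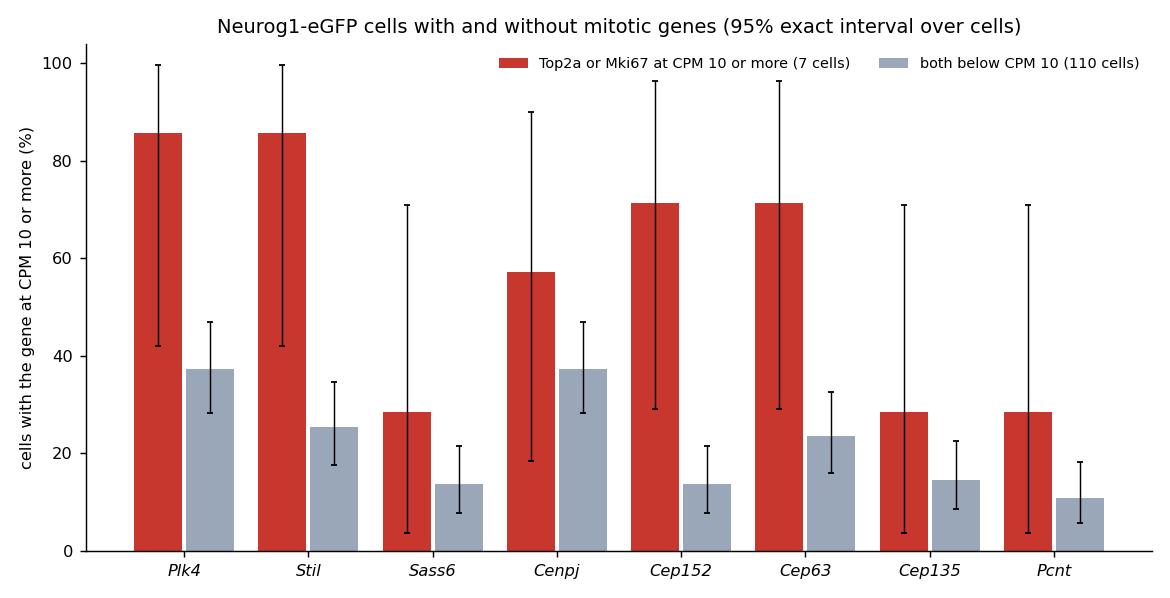
Bars give the percentage of Neurog1-eGFP cells with each gene at CPM 10 or more, for the 7 cells with Top2a or Mki67 at that limit (left bar) and the 110 without (right bar), with 95% exact intervals over cells. The left bars are higher for all 8 genes, and the intervals are apart for Stil and Cep152.

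The reference cells were divided in the same way. Without the very rich libraries, Plk4 was found in 2 of 9 cells with mitotic genes (22.2%, 2.81 to 60.01%) and in 2 cells without (1.68%, 0.204 to 5.94%), against 41 of 110 in the Neurog1-eGFP cells without mitotic genes. Stil was found in 1 of the 9 and in 3 of the cells without mitotic genes, and Cenpj in 1 of the 9 and in 7. The single OMP-eGFP cell with Mki67, an engrafted cell of 76858 fragments, had none of the 8 genes.

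The genes also differed with the neuronal stage of the cell. In the Neurog1-eGFP sorts, Plk4 was found in 37 of 60 cells with Neurog1 or Neurod1 mRNA (61.7%, 48.2 to 73.9%) and in 10 of 57 cells with neither (17.5%, 8.75 to 29.9%). Stil was found in 31 of the 60 and 3 of the 57 (51.7% and 5.26%), and Cenpj in 31 of the 60 and 14 of the 57 (51.7%, 38.4 to 64.8%, and 24.6%, 14.1 to 37.8%). The intervals were apart for these 3 genes. They overlapped for the other 5: Sass6 was found in 13 of the 60 and 4 of the 57, Cep152 in 16 and 4, Cep63 in 20 and 11, Cep135 in 11 and 7, and Pcnt in 9 and 5. Among the 26 cells with either precursor gene at CPM 100 or more, a limit chosen after seeing the data, 24 had Plk4 (92.3%) and 21 had Stil (80.8%). With the cells that carried mitotic genes left out, the shares of Plk4 were 31 of 54 (57.4%) and 10 of 56 (17.9%). Median depth was near equal, 988437 fragments with the precursor genes and 1023403 without, and 15 cells had a precursor gene between 5 and 20 CPM.

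The stage could be followed further with Gap43, the growth cone protein of immature neurons. Plk4 was found in 24 of 32 cells with Neurog1 or Neurod1 but no Gap43 (75%, 56.6 to 88.5%), in 13 of 28 cells with both (46.4%, 27.5 to 66.1%), in 8 of 48 cells with Gap43 alone (16.7%, 7.48 to 30.2%) and in 2 of 9 cells with neither. Stil was found in 23 of 32, 8 of 28, 3 of 48 and 0 of 9 (71.9%, 28.6% and 6.25% in the first 3 classes, and up to 33.3% allowed in the last). Cenpj declined less between the classes, with 19 of 32, 12 of 28, 12 of 48 and 2 of 9. Pcnt, with 4 of 32, 5 of 28 and 5 of 48 in the first 3 classes, had no order. Classes cut from a CPM limit are ranges and not cell types.

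**Figure D4:**
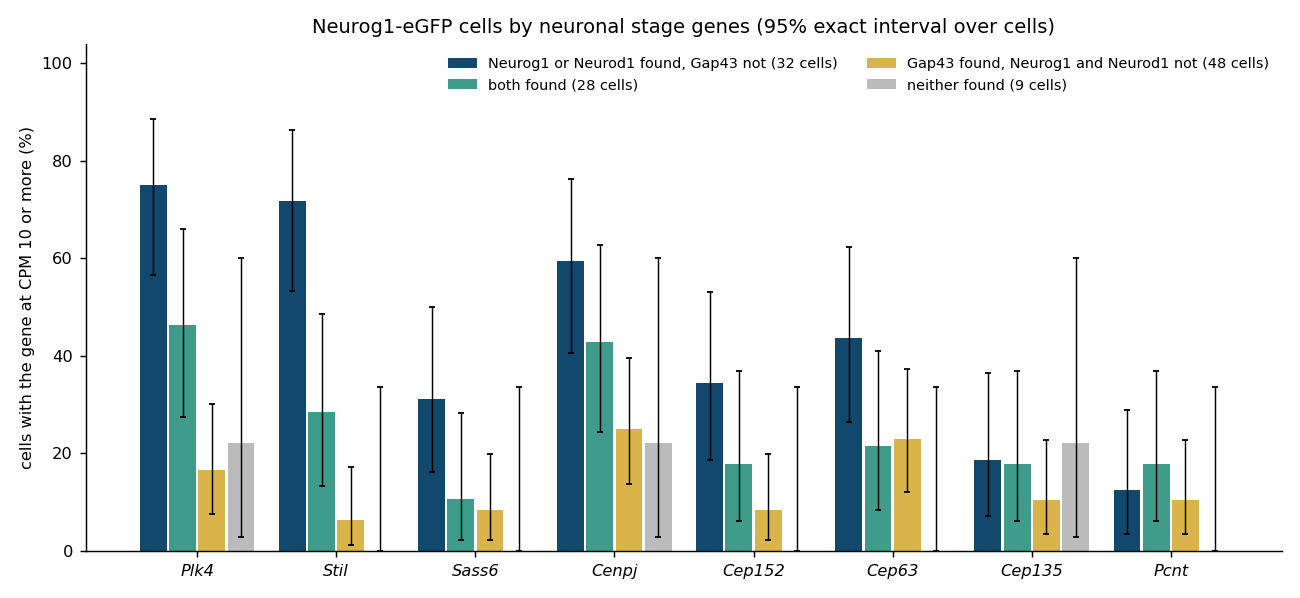
Bars give the percentage of Neurog1-eGFP cells with each gene at CPM 10 or more in 4 classes set by Neurog1 or Neurod1 and by Gap43, each at CPM 10, with 95% exact intervals over cells. Plk4 stands at 75%, 46.4% and 16.7% and Stil at 71.9%, 28.6% and 6.25% in the first 3 classes, while Cep135 and Pcnt stay between 10.4% and 18.8%.

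By group, the shares of Plk4 and Stil were higher with a precursor gene in all 3 Neurog1-eGFP groups. Plk4 was found in 15 of 27 cells with a precursor gene and 3 of 19 without in uninjured epithelium, in 12 of 20 and 4 of 26 at 5 days, and in 10 of 13 and 3 of 12 at 14 days. Stil was found in 15 of 27 and 1 of 19, in 9 of 20 and 1 of 26, and in 7 of 13 and 1 of 12. Cenpj was found in 18 of 27 and 5 of 19 uninjured cells and in 8 of 20 and 5 of 26 at 5 days, but in 5 of 13 and 4 of 12 at 14 days (38.5% and 33.3%). On mean CPM over the 3 groups, 6 of the 8 genes were at least 2-fold higher in cells with a precursor gene, where 23.3% of 10233 genes were, and none at least 2-fold lower, where 22.4% were. Stil had the largest ratio of the 8 (263.9 and 12.7 CPM, log2 4.27), ahead of Plk4 (661 and 84.3 CPM, 2.96) and Cenpj (243.4 and 54.3 CPM, 2.14), and Cep63 and Pcnt were under 2-fold (0.97 and 0.56). Without the highest cell, the calls of Cep152 (1.39 with that cell, 0.57 without) and Cep135 (1.06 and 0.64) were lost and 4 of 8 remained, with Stil at 4.08, Plk4 at 2.83, Cenpj at 1.85 and Sass6 at 1.43.

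Other marker genes in the cells with and without Plk4 were these. The summed CPM of 6 precursor markers had a median of 14387 in cells with Plk4 and 5315 in cells without, that of 6 immature neuron markers 4713 and 8179, and that of 7 mature neuron markers 317.1 and 1139. The 6 sustentacular markers ranged from 0 to 37184 CPM in cells with Plk4 and from 0 to 42610 in cells without, with medians of 0.0292 and 1.79. The 4 respiratory multiciliated markers had medians of 29.9 and 51.2 CPM. The 4 immune markers had a median of 0 CPM in both sets, with a highest sum of 0 CPM with Plk4 and 5.95 CPM without.

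The genes were found together to different degrees in the Neurog1-eGFP cells, which share libraries and sorts, so that correlations across them are descriptions. Stil was found in 28 of 47 cells with Plk4 (59.6%, 44.3 to 73.6%) and in 6 of 70 without it (8.57%, 3.21 to 17.7%). Conversely Plk4 was found in 28 of 34 cells with Stil (82.4%). Cep152 was found in 15 of the 47 cells with Plk4 and 5 of the 70 without (31.9% and 7.14%), and Sass6 in 13 and 4 (27.7% and 5.71%). Cenpj was found in 22 and 23 (46.8% and 32.9%), and Cep135 in 9 and 9 (19.1% and 12.9%), with overlapping intervals.

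**Figure D5:**
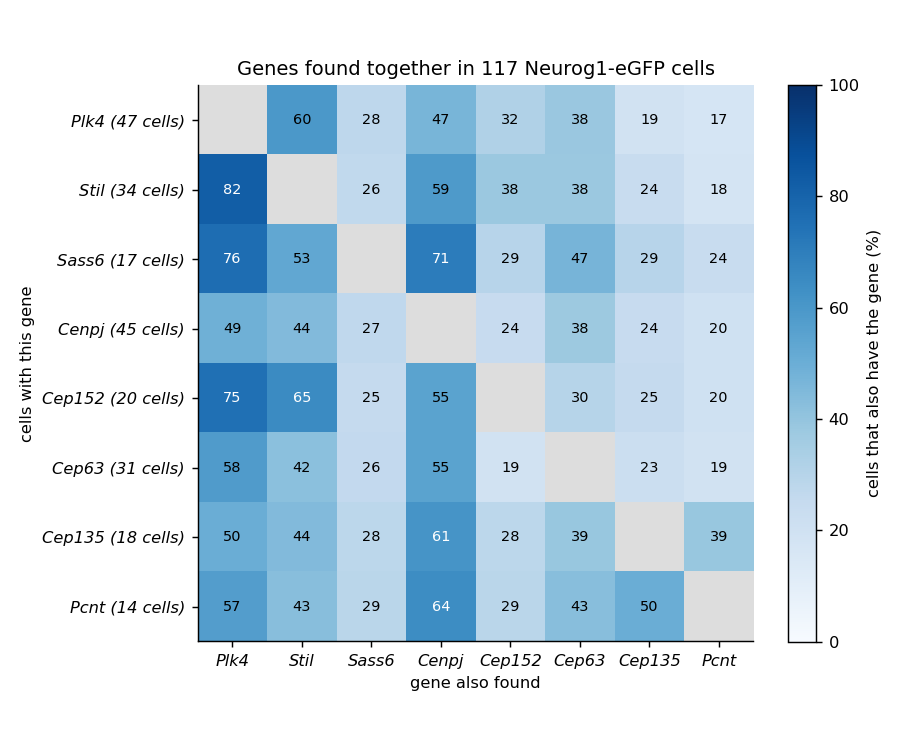
Each square gives the percentage of the Neurog1-eGFP cells with the gene of its row, at CPM 10 or more, that also had the gene of its column, with the number of cells of each row in brackets. Of the 34 cells with Stil 82.4% also had Plk4, whereas of the 45 cells with Cenpj 48.9% did.

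Among 6660 genes found in at least 10% of these cells, Stil was the gene most like Plk4 in log2(CPM + 1), with Pearson r = 0.61 over all cells of the 3 groups. Others of high r were Neurod1 (0.60), Scg2 (secretogranin II, 0.57), Rbm24 (an RNA-binding protein, 0.53), Baz1a (a chromatin remodelling subunit, 0.53), Mfng (a glycosyltransferase that modifies Notch receptors, 0.52) and Neurog1 (0.52). Cenpj had another set of nearest genes, led by Ptma (prothymosin alpha, 0.48), Enc1 (0.44), Ezh2 (the histone methyltransferase of Polycomb complex 2, 0.43), Phf14 (0.41), Prdx2 (0.40), Baz1a (0.40), Nhlh2 (a bHLH factor of neurons, 0.40) and Rps26 (0.40). The r between Plk4 and Cenpj was 0.18.

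Uninjured Neurog1-eGFP cells were then set against the reference, which asks how the sorted cells differ from the epithelium at large. On mean CPM, Plk4, Cenpj, Stil and Sass6 were at least 2-fold higher in the Neurog1-eGFP cells, 4 of 8 where 22.6% of 11048 genes were, and Pcnt was at least 2-fold lower, where 32.4% were. Plk4 averaged 424.3 CPM in Neurog1-eGFP cells and 14.7 CPM in the reference (log2 ratio 4.76), Cenpj 223.7 and 9.59 CPM (4.41), Stil 113.01 and 18.7 CPM (2.53), and Sass6 37.4 and 5.98 CPM (2.46, or 1.398 without the uninjured cell of 936 CPM). With the cells that carried mitotic genes left out of both groups, the log2 ratio was 5.50 for Plk4, 5.51 for Cenpj and 3.23 for Stil. Pcnt averaged 4.21 and 27.5 CPM (-2.45). A single reference cell of 2465 CPM held most of the reference mean, and without it the log2 ratio was -1.02. Without the very rich libraries the 5 calls were in the same directions, with log2 ratios of 5.14 for Plk4, 4.63 for Cenpj, 2.87 for Stil, 2.67 for Sass6 and -2.40 for Pcnt, where 26.1% of genes were higher and 30.4% lower. Against run 1 and run 2 of the reference alone, the log2 ratio was 4.45 and 5.13 for Plk4, 4.90 and 4.06 for Cenpj, 2.13 and 3.06 for Stil and 3.06 and 2.05 for Sass6. Cep152 (-1.23 and 0.45), Cep63 (1.31 and 0.21) and Cep135 (1.92 and -0.49) passed 2-fold against run 1 only. Sustentacular genes, at a median summed 0 CPM in the uninjured Neurog1-eGFP cells and 6040 CPM in the reference, moved with this comparison, and their part in it was not tested.

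OMP-eGFP cells differed from Neurog1-eGFP cells at the same 14 days after bulbectomy. All but 1 of the 8 genes were at least 2-fold lower in OMP-eGFP cells, 7 of 8 where 28.6% of 10022 genes were, and none was at least 2-fold higher, where 32.4% were. Plk4 averaged 11.7 CPM in OMP-eGFP cells and 415.4 CPM in Neurog1-eGFP cells (log2 ratio -5.04, or -4.07 without cells with mitotic genes), Cenpj 1.95 and 111.1 CPM (-5.25), Stil 3.11 and 110.9 CPM (-4.76) and Cep152 0.243 and 30.7 CPM (-4.67). Cep135, Sass6 and Pcnt had log2 ratios of -1.91, -1.47 and -1.24. Of these, the ratios of Cep135 and Pcnt were -0.49 and -0.26 without the highest Neurog1-eGFP cell. Cep63 averaged 36.1 and 34.2 CPM (0.08), but 1 OMP-eGFP cell of 1301 CPM carried its mean, and without that cell the log2 ratio was -2.49.

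The 3 Neurog1-eGFP groups were compared for an effect of injury, and the comparisons share groups. At 5 days against uninjured, Plk4 averaged 316.1 and 424.3 CPM (log2 ratio -0.42) and Stil 186.8 and 113.01 CPM (0.72), both under 2-fold. Cep152 and Pcnt were at least 2-fold higher at 5 days, where 20.8% of 10048 genes were, and Sass6 and Cenpj at least 2-fold lower, where 26.3% were. The numbers of cells behind these calls were small: Pcnt averaged 38.8 CPM at 5 days and 4.21 CPM in uninjured cells (2.93, or 2.14 without the highest cell), from 4 cells in each group. Cep152 averaged 61.4 and 9.71 CPM (2.54) from 7 cells each, with 70.5% of the 5-day sum in 2 cells and a log2 ratio of 1.66 without the highest. Sass6 averaged 3.44 and 37.4 CPM (-3.11), and without the uninjured cell of 936 CPM the log2 ratio was -2.05. Cenpj averaged 100.8 and 223.7 CPM (-1.14), and without the uninjured cell of 2909 CPM the ratio was -0.70, under 2-fold.

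At 14 days against uninjured, Plk4 averaged 415.4 and 424.3 CPM (log2 ratio -0.03) and Stil 110.9 and 113.01 CPM (-0.03). Pcnt (1.98), Cep152 (1.57) and Sass6 (1.05) were at least 2-fold higher at 14 days, where 22% of 9992 genes were, and Cenpj (-1.003) just at least 2-fold lower, where 29.9% were. Without the highest cell of the higher group, Cep152 alone kept its call (1.25), with Pcnt at 0.99, Sass6 at 0.75 and Cenpj at -0.56. At 14 days against 5 days, 1 of the 8 genes was at least 2-fold higher, Sass6 (78.4 and 3.44 CPM, log2 4.16), where 23.5% of 9843 genes were, and none at least 2-fold lower, where 27.2% were. Plk4 averaged 415.4 and 316.1 CPM (0.39), and its shares of cells, 52% and 34.8%, had overlapping intervals. Sass6 was found in 8 of the 25 14-day cells and in 2 of the 46 5-day cells, and the intervals were 14.9 to 53.5% and 0.531 to 14.8%, just short of overlapping.

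Other genes of the same structures were followed from lists. Of 23 further centriole and centrosome genes, 22 reached a mean CPM of 5 in uninjured Neurog1-eGFP cells or the reference, and in Neurog1-eGFP cells 7 were higher and 2 were lower by 2-fold or more, where 22.6% of all genes were higher and 32.4% lower. The median log2 ratio was 0.42, against -0.15 over all genes. The largest was that of Cep120, a partner of Cenpj in lengthening centrioles, at 421.6 CPM in Neurog1-eGFP cells and 49.5 CPM in the reference (3.07), found in 22 of the 46 Neurog1-eGFP cells and 24 reference cells. Cep97 (168.3 and 30.9 CPM, 2.41) and Ccp110 (869 and 352.5 CPM, 1.30), which together cap the growing centriole, and Cep192 (40.9 and 7.07 CPM, 2.38), which brings Plk4 to the centriole, were also higher. Cntrob was lower (0.948 and 32.2 CPM, -4.09).

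In cells with precursor genes, 5 of 22 of this list were higher and 3 lower by 2-fold or more, where 23.3% and 22.4% of all genes were, so its share of higher genes was that of the background, with a median of 0.30 against 0.02 over all genes. Cep192 was found in 6 of 60 cells with precursor genes and 0 of 57 without, and Poc1a, a centriole wall protein, in 7 of 60 and 0 of 57. Of 10 genes of the distal appendages and basal body, which anchor a centriole at the membrane, 6 of 10 were at least 2-fold higher and 1 lower in uninjured Neurog1-eGFP cells than in the reference, where 22.6% and 32.4% of all genes were. In cells with precursor genes 1 of 9 was higher and 1 lower, where 23.3% and 22.4% of all genes were, with a median of -0.18.

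The deuterosome programme, by which respiratory and other multiciliated cells make many centrioles at once, was followed with 13 genes, and its specific genes were found in few or no Neurog1-eGFP cells. Deup1 (listed as Ccdc67), which builds the deuterosome, was found in no cell of the 3 groups, and neither were Ccno, a cyclin-like regulator of that programme, and Gmnc, its early inducer. Mcidas was found in 1 cell. A count of 0 allows a share of up to 2.56% of these cells. In the reference, with the very rich libraries included, Ccno was found in 9 cells (6.57%), and Deup1 and Gmnc in none, which allows up to 2.19%. Foxj1, the cilia regulator, was found in 4 Neurog1-eGFP and 14 reference cells (3.42% and 10.2%), and Rfx3, which acts in many ciliated cells, in 89 and 79 (76.1% and 57.7%). Transcription factors of the list that also act in the cell cycle were found at shares near or above those of the reference with the very rich libraries included. These were Tfdp1 in 30 and 23 cells (25.6% and 16.8%), E2f4 in 15 and 17 (12.8% and 12.4%) and E2f5 in 15 and 14 (12.8% and 10.2%). The other 4, Myb, Ccdc78, Trp73 and Rfx2, were found in 2, 1, 2 and 7 Neurog1-eGFP cells and in 6, 0, 5 and 14 reference cells.

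Cell cycle lists were set beside the mitotic split. That split was made on 2 genes of dividing cells, so a rise of other such genes was largely built in. All 16 genes of the G2 and M phases were at least 2-fold higher in the Neurog1-eGFP cells with mitotic genes, where 19.4% of all genes were. Their summed means were 4303 CPM with mitotic genes and 19.2 CPM without. Of 8 measured S phase genes, 6 were at least 2-fold higher (median log2 ratio 1.30), among them Mcm4 (155.6 and 60.8 CPM). Pcna was lower (0.576 and 39.5 CPM). Of 6 measured genes of centriole licensing and cycle exit, 3 were at least 2-fold higher, where 19.4% of all genes were. Another 2 were at least 2-fold lower, where 46.4% were. In this list the Cdk inhibitor gene Cdkn1a was found in none of the 7 cells with mitotic genes and 28 of 110 without. With 7 cells, a count of 0 allows a share above that of the 110, so this gene does not set them apart. Another inhibitor gene of the list, Cdkn1b, was found in 5 of 7 and 21 of 110. In cells with precursor genes all 15 measured G2 and M phase genes were at least 2-fold higher, where 23.3% of all genes were (summed means of 522 and 14.2 CPM). Each of the 15 was found in at most 6 of the 60 cells, and Plk4 in 37. Neurod1 was found in 6 of the 7 cells with mitotic genes, which thus belong to this class. Their part in the rise was not tested. At 5 days against uninjured, 12 of 13 measured G2 and M phase genes were at least 2-fold lower, where 26.3% of all genes were, although 2 cells carried Top2a or Mki67 at 5 days and 1 did in the uninjured group. Their summed means were 18.8 CPM at 5 days and 310.3 CPM in uninjured cells. Since the cells without mitotic genes had a summed mean of 19.2 CPM, most of the uninjured sum came from its 1 cell with mitotic genes. The ratios without that cell were not computed for this list. At 14 days against 5 days all 14 measured were at least 2-fold higher, where 23.5% of all genes were, with 4 of the 7 cells with mitotic genes in the 14-day group.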

How the data were processed

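The first deposited table holds signal: estimated fragments per gene brought by the authors to a nearly equal total per library (1.04% of its nonzero values are whole numbers). The second deposited table holds FPKM computed by the authors, and its 138 columns of Neurog1-eGFP cells were used; 331 columns were not used. The build was mm9 and the tools were STAR 2.5.2a, Cuffnorm, Cufflinks 2.2.1 and FastQC, per the submitters' processing notes, which as used here give no roles. No annotation is named.

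Of 23308 entries, 27 with names altered into dates (0.418% of the signal) were left out. Of 469 libraries, the 328 with at least 1000 genes at a deposited value of 1 or more were kept, which gave 325 cells after averaging (117 Neurog1-eGFP and 137 reference, or 128 without the very rich libraries), and values were divided by the library's sum to give CPM. Within a kept library a median of 98.4% of low values were whole multiples of 1 step (tolerance 0.02), the value of 1 fragment, which gave the depth. The plan allowed for counts or scaled counts, and the table was used as scaled signal. Pairs of libraries with Pearson r above 0.9, outside the 9 libraries over 10000 genes, were averaged, a limit chosen after seeing the data. Those 9, with r up to 0.953 among themselves, were left as separate cells, and the reference intervals that include them treat them so. No doublet caller was run.

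Each group was 1 sample, so no test was made. A gene was called at least 2-fold higher or lower when the log2 ratio of mean CPM + 1 was at least 1 or at most -1, among genes with a mean of at least 5 in either group. The 8 genes and all lists were chosen with earlier results of these data known. The genes named are the 8, the genes of the lists and markers, and for Plk4 and Cenpj the 8 of highest Pearson r, in which Olfr, Gm-numbered and Rik names were passed over; a few items under this rule are not reported here. Cdc20b was looked for and not used. The scripts were tested on simulated data. Python 3 with numpy, pandas and scipy was used.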

Additional observations from a re-analysis of the deposited data

How the results depend on the processing

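Leaving out a very rich library set, thinning every library to 200000 fragments (which left out 5 engrafted OMP-eGFP, 2 uninjured and 1 14-day Neurog1-eGFP and 18 reference cells), other limits on CPM or genes, and keeping the near-identical pairs separate were tried for the Plk4 shares. Of 88 shares recomputed, for Plk4 and, by precursor genes, Stil and Cenpj, 81 stayed inside the interval of the reported value. The Plk4 share in the reference was 3.13% without the very rich libraries, 16.4% in run 1 alone and 2.86% in run 2 alone; 7.56% when thinned. In Neurog1-eGFP cells with mitotic genes it was 100% when found was set at CPM 5, and 100% of 5 cells when mitotic meant 3 or more G2 and M phase genes; in cells without, it stayed between 29.1% and 40%. In cells with Neurog1 or Neurod1 at CPM 100 it was 92.3%.

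Of 58 counts of genes at least 2-fold higher or lower, 49 were within 1.5 times the reported count. The exceptions were uninjured Neurog1-eGFP cells over the reference with run 1 alone (8 against 5); 14 days over uninjured with a pseudocount of 10 or on FPKM (2 against 4) or without the highest cell (1); and 14 days over 5 days with a filter of 500 or 2000 genes or without the highest cell (2 against 1), with the pairs kept separate (3) or without cells with mitotic genes (4). The fewer cells or other scale is part of each setting; the cause was not tested further. Among log2 ratios of single genes, 1 called ratio changed sign: Stil with over without mitotic genes, -0.0595 without the highest cell against 1.74. The FPKM alternative was not run for the comparisons with the reference and the OMP-eGFP cells. The pairs and highest-cell settings, the precursor limit of CPM 100, thinning or leaving out mitotic cells for the split by precursor genes, and all alternatives for the ratios between cells with and without mitotic or precursor genes were chosen after seeing the data. No paired analysis was possible because each group was 1 sample and replicate numbers only name libraries.

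At the median depth a CPM of 10 is near 5 fragments in the reference and in engrafted cells, so a gene below a few fragments was not called found in such a cell. The shallowest kept libraries had 13370 (engrafted), 64424 (reference) and 77284 (uninjured Neurog1-eGFP) fragments. In these a single fragment lies above CPM 10 and counts as found.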
